A study of Mus musculus with 21 samples.

Results

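Cxcl14 and 9 other chemokine genes (Cxcl12, Cxcl1, Cxcl9, Cxcl10, Cxcl16, Cx3cl1, Ccl2, Ccl11 and Ccl6) were followed in bulk RNA-sequencing of mouse hearts, 10 genes among the 46517 Ensembl genes counted. Cxcl14 was selected on these samples because the Notch3-/- mice lay below the controls, so its genotype difference is given as a description with no test. The hearts came from 4 control mice (Notch3+/+) and 3 Notch3-/- mice, all of the C57BL/6J strain and of unstated sex, with ages of 10 to 14 months in the published figure legend. RNA from the hearts was converted to cDNA, amplified by PCR and tagged with the Tn5 enzyme, with 3 technical libraries from each mouse. The paper names frozen left ventricle as the source of its qPCR RNA, and its sequencing methods name no region. In the Notch3-/- mice beta-galactosidase was used by the study as a proxy for Notch3 expression. The 12 control libraries held 464390 to 2134368 counts and the 9 Notch3-/- libraries 979804 to 2427783. The counts of the 3 libraries were summed, which gave mouse totals of 3046326 to 4638786 in the control group and 3828763 to 5167869 in the Notch3-/- group. The labels of 2 control mice start with X and those of all other mice with k, a difference the labels do not explain. In the main analysis the mouse was the replicate, and p-values measure the spread between mice.

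Chemokines are small secreted or membrane-anchored proteins that bind G protein-coupled receptors on leukocytes and other cells and guide their migration along a gradient. Atypical receptors bind the same ligands without G protein signalling and take them up. In the heart, endothelial cells, fibroblasts, mural cells and resident macrophages produce chemokines, and monocytes that carry the receptor Ccr2 are recruited to injured myocardium.

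The targeted gene was examined to check the labels. Notch3 reached 174, 200, 245 and 185 counts in controls 1 to 4, against 22, 36 and 25 in Notch3-/- mice 1 to 3. Every Notch3-/- mouse was below every control mouse, with a log2 fold change of -3.16 (SE 0.23, Benjamini-Hochberg FDR 0.00173, edgeR quasi-likelihood). In the mice with k labels alone the log2 fold change was -3.29 (Benjamini-Hochberg FDR 0.206, edgeR), and with a hepatocyte score as a covariate it was -3.41 (Benjamini-Hochberg FDR 0.102, edgeR). The score is the mean log2 CPM of 25 hepatocyte markers in each mouse. Heart tissue was evident from the cardiomyocyte genes, with Ttn, which encodes titin, at 39556 to 55702 counts in all 7 mice.

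Cxcl14 encodes a chemokine that epithelial and stromal tissues make without stimulation and whose receptor is debated. The gene (ENSMUSG00000021508) lies on the minus strand of chromosome 13, chr13:56288643-56296551 in the GENCODE annotation of GRCm38. It reached 295, 215, 282 and 248 counts in controls 1 to 4, against 91, 214 and 174 in Notch3-/- mice 1 to 3. Scaled to library size after TMM normalization (CPM), controls 1 to 4 held 97.1, 45.3, 66.3 and 82.8, against 24.9, 45.0 and 32.9 for Notch3-/- mice 1 to 3. All Notch3-/- mice lay below all control mice, but the highest Notch3-/- mouse and the lowest control mouse, at 45.01 and 45.31 CPM, were nearly equal. The mean was 72.9 ± 22.3 CPM (SD, n = 4) in control and 34.3 ± 10.1 CPM (SD, n = 3) in Notch3-/- hearts. The fitted log2 fold change was -1.08 (SE 0.28). Among all tested genes 3.96% had every Notch3-/- mouse below every control mouse, and since Cxcl14 was chosen for this pattern nothing is read from its membership of that group. In bulk tissue, fewer cells that make a transcript and less of the transcript per cell cannot be told apart.

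**Figure D1:**
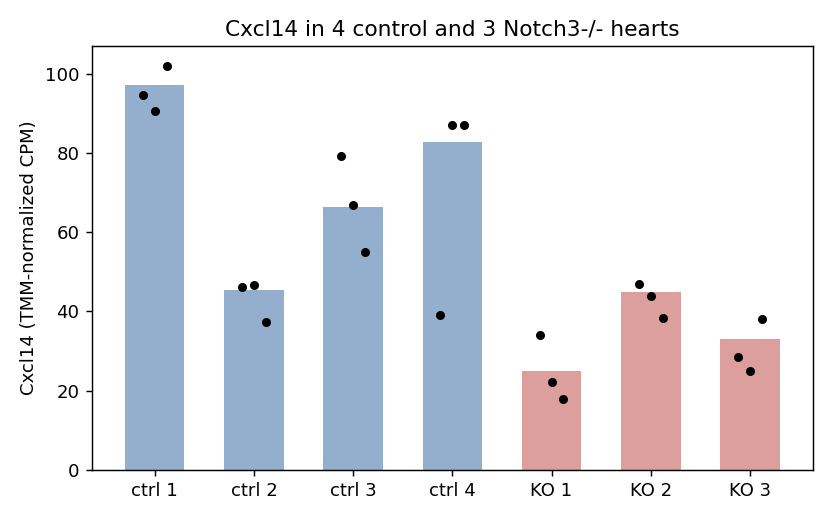
Cxcl14 in each mouse, in TMM-normalized CPM. Bars are the summed counts of a mouse (blue control, red Notch3-/-, labelled KO) and black points its 3 technical libraries; control mouse 2 and Notch3-/- mouse 2 meet at 45.3 and 45.0 CPM.

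The technical libraries showed how far a single library can stray. The 9 Notch3-/- libraries ranged from 17.9 to 46.9 Cxcl14 CPM and the 12 control libraries from 37.4 to 102. All 9 Notch3-/- libraries were below the control median of 73.0 CPM, and 5 were below every control library. The groups overlapped at this level, because 4 control libraries were below the highest Notch3-/- library. In control mouse 4 the 3 libraries spanned 39.0 to 87.2 CPM, the widest range of any mouse, while those of control mouse 1 spanned 90.7 to 102.

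Markers of liver cells were counted in these hearts, with the largest sums in 2 of the 3 Notch3-/- mice. The 25 hepatocyte markers summed to 74.4, 198, 34.1 and 43.1 CPM in control mice 1 to 4 and to 8670, 15408 and 190 CPM in Notch3-/- mice 1 to 3. Of these 25, 22 were tested, and all 22 had a positive log2 fold change and an unadjusted p lower than 0.05, but 0 were called by edgeR (lowest Benjamini-Hochberg FDR 0.118). Among all tested genes 7.34% were higher at this unadjusted p. The expression filter needs 3 mice at a cutoff of 2.38 CPM before TMM scaling, and 17 of the 22 reached it in all 3 Notch3-/- mice but in fewer than 3 control mice, so that their direction is partly set by the filter. Alb, which encodes albumin and was the most abundant of them, reached 68, 385, 10 and 32 counts in controls 1 to 4, against 6240, 8913 and 354 in Notch3-/- mice 1 to 3. Tat and Cyp2e1, metabolic enzymes, and Apoc3, an apolipoprotein, had log2 fold changes of 8.77, 6.82 and 7.06. Summed hepatocyte markers were thus high in Notch3-/- mice 1 and 2 and within the control range in mouse 3. Of the 22 tested markers, 11 had all Notch3-/- mice above all control mice, against 4.57% of all tested genes. The filter favours this pattern too, so nothing is read from the count. The 10 markers of Kupffer and liver sinusoidal cells, 6 of them tested, summed to 58.9, 77.1, 43.3 and 41.4 CPM in control mice and to 145, 196 and 62.4 CPM in Notch3-/- mice. All 6 had a positive log2 fold change, 4 with an unadjusted p lower than 0.05, and 0 were called by edgeR, and 1 reached the cutoff in 3 mice of the Notch3-/- group only. Lyve1, the most abundant, had a log2 fold change of 0.11, and Stab2, Vsig4, Cd5l and Timd4 had 2.34, 1.29, 4.26 and 1.21. With Notch3-/- mouse 3 as the only Notch3-/- mouse, an alternative chosen after seeing the data in which the lone mouse is assumed to vary like the others, the log2 fold change of Cxcl14 was -1.14, and with the hepatocyte score as a covariate it was -1.09. Among the mice with k labels (2 control, 3 Notch3-/-) it was -1.12. These values describe the difference by which Cxcl14 was picked, and the part of liver-type RNA in it was not tested. Since the hepatocyte markers were high in Notch3-/- mice 1 and 2, a fit with the score separates it from genotype mainly through mouse 3. Log2 fold changes from that fit, here and below, are imprecise.

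**Figure D2:**
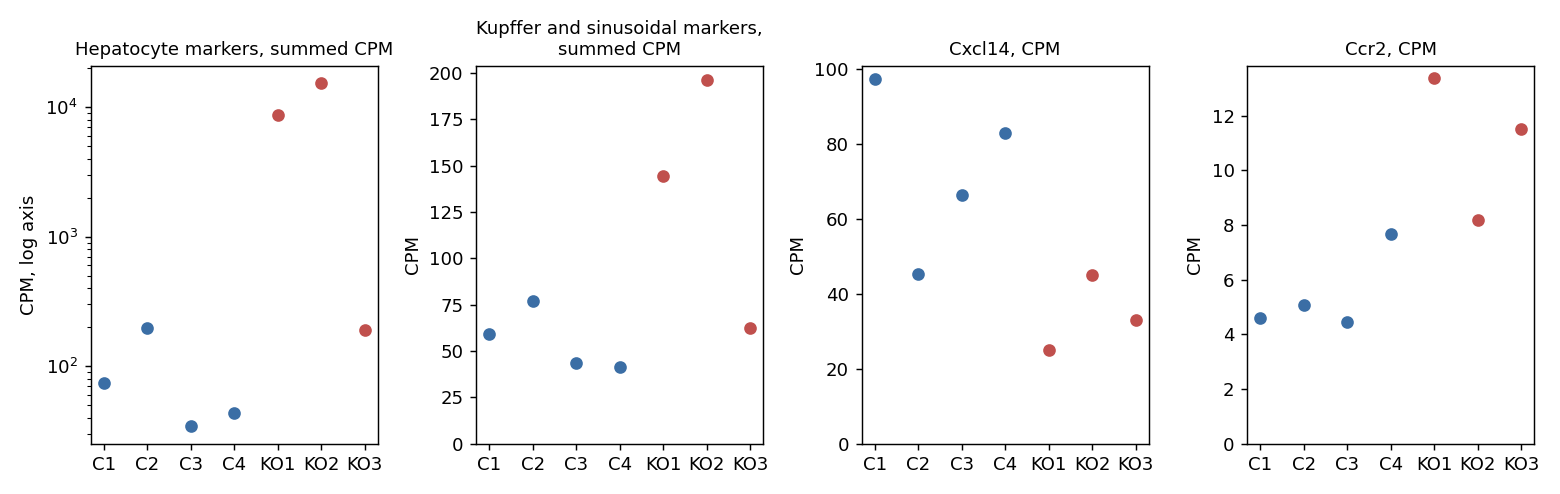
Summed CPM of hepatocyte markers (log axis) and of Kupffer and sinusoidal markers, and CPM of Cxcl14 and Ccr2, in control mice 1 to 4 (blue, C) and Notch3-/- mice 1 to 3 (red, KO). Notch3-/- mice 1 and 2 hold 8670 and 15408 CPM of hepatocyte markers, and mouse 3 holds 190 CPM.

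Cxcl12, the ligand of Cxcr4 and Ackr3 that retains progenitor cells and supports vessel growth, was the most abundant of the 10 genes. It reached 1979, 2165, 2372 and 1902 counts in controls 1 to 4, against 2061, 2804 and 2586 in Notch3-/- mice 1 to 3. In CPM these were 652, 456, 558 and 635 against 563, 590 and 489, and the groups overlapped. The mean was 575 ± 89.2 CPM (SD, n = 4) in control and 547 ± 52.2 CPM (SD, n = 3) in Notch3-/- hearts. The log2 fold change was -0.07 (SE 0.14, 95% confidence interval -0.38 to 0.24, Benjamini-Hochberg FDR 0.898, edgeR). Cxcl12 made up 65.2% to 71.6% of the CPM of all 38 measured chemokine ligands in the 7 mice. Cxcl14 took 10.4%, 6.56%, 8.21% and 9.05% of it in controls 1 to 4, against 3.16%, 5.15% and 4.39% in Notch3-/- mice 1 to 3, shares that rest on the values by which Cxcl14 was picked.

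Cxcl1 and Cxcl10 were the members with all Notch3-/- mice above all controls. This pattern occurred in 4.57% of the 14324 genes tested, a background against which 1 of the 8 tested members apart from Cxcl14 is set. Cxcl1, a ligand of Cxcr2 that attracts neutrophils, reached 5, 7, 13 and 1 counts in controls 1 to 4, against 16, 25 and 17 in Notch3-/- mice 1 to 3. Its mean was 1.63 ± 1.12 CPM (SD, n = 4) in control and 4.28 ± 1.02 CPM (SD, n = 3) in Notch3-/- hearts. The nearest mice were control mouse 3 at 3.06 CPM and Notch3-/- mouse 3 at 3.21 CPM, so the gap was small. The log2 fold change was 1.33 (SE 0.52, 95% confidence interval 0.15 to 2.50), with a Benjamini-Hochberg FDR of 0.426 in edgeR, and it was not called. Cxcl1 passed the expression filter through the Notch3-/- mice, since 1 of the 4 control mice and all 3 Notch3-/- mice reached the cutoff. In a fit to every gene with at least 1 count the log2 fold change was 1.32 (Benjamini-Hochberg FDR 0.496, edgeR). It was 0.91 with the hepatocyte score as a covariate and 0.92 with Notch3-/- mouse 3 alone, and the part of liver-type RNA in the difference was not tested further.

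Cxcl10, an interferon-induced ligand of Cxcr3 that attracts activated T cells, had too few counts to pass the expression filter and was not in the main fit. In an edgeR fit to every gene with at least 1 count, with adjustment over 28790 genes, Cxcl10 was not called. It reached 3, 0, 1 and 3 counts in controls 1 to 4, against 8, 19 and 24 in Notch3-/- mice 1 to 3. In CPM it was 0.556 ± 0.516 (SD, n = 4) in control and 3.57 ± 1.23 (SD, n = 3) in Notch3-/- hearts, and a count of 0 in control mouse 2 allows up to 0.632 CPM. The groups did not overlap, and an exact permutation over the 35 ways to divide the 7 mice gave the lowest p it can reach, 0.0286. On technical libraries 2 and 3 alone the exact permutation p was 0.0571 and 0.114. Over summed counts the Notch3-/- to control ratio was 7.99 (95% interval 3.61 to 20.9), an exact binomial interval that covers counting error only, since PCR reads without molecular identifiers are not independent molecules. The ratio of mean CPM was 6.42 in all mice, 8.16 with Notch3-/- mouse 3 as the only Notch3-/- mouse and 5.78 in the mice with k labels, and on single technical libraries it ranged from 3.59 to 23.9. The exons of Cxcl10 share 133 bases with Art3 on the other strand, and whether the counting used strand is not stated, so reads of the 2 genes in these bases cannot be told apart. Art3 reached 816, 1476, 1276 and 927 counts in controls 1 to 4, against 1011, 1017 and 1453 in Notch3-/- mice 1 to 3, groups that overlap.

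The promoter windows of Cxcl14, Cxcl1 and Cxcl10 are shown because these were the members whose mice did not overlap between genotypes. RefSeq windows of 300 bases (GRCm38.p6, 250 before to 50 after the start site) were found for 7 of the 10 members. They are chr13:56296502-56296801 on the minus strand for Cxcl14, chr5:90890995-90891294 on the plus strand for Cxcl1 and chr5:92348840-92349139 on the minus strand for Cxcl10. Capitals mark matches to an interferon-stimulated response element (ISRE, GAAANNGAAA) or to the NF-kB consensus.
Cxcl14: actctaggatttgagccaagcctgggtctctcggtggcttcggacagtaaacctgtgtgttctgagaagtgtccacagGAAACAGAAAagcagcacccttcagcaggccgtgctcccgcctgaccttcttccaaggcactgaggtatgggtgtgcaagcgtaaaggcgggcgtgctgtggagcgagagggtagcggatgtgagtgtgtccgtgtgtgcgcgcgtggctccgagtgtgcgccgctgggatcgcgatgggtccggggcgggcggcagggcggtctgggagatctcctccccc
Cxcl1: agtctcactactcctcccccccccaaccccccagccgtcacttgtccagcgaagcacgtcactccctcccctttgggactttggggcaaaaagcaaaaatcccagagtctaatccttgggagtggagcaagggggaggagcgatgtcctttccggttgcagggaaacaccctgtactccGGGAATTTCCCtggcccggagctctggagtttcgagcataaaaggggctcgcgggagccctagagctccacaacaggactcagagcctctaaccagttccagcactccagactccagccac
Cxcl10: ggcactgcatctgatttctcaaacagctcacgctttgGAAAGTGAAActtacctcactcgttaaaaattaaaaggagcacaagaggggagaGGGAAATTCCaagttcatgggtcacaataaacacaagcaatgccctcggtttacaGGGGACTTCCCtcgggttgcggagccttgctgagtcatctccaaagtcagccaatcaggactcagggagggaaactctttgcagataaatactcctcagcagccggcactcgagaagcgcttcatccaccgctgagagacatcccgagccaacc
The match in Cxcl14 and the match nearest the 5' end in Cxcl10 are ISRE matches, and all other capitals are NF-kB matches. The ISRE was found on either strand in 3.44% of all 32851 promoter windows and the NF-kB consensus in 8.46%. The Cxcl10 window held 1 ISRE match and 4 NF-kB matches, of which 3 overlap, and the Cxcl1 window held 2 overlapping NF-kB matches. The RBPJ core TGGGAA, the motif bound by the DNA-binding partner of Notch, was in 25.6% of windows, Cxcl12 and Cx3cl1 among them, and TATAAA was in 13.6%. Neither was in the windows of Cxcl14, Cxcl1 and Cxcl10. A match describes letters in the window and is not evidence of binding.

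**Figure D3:**
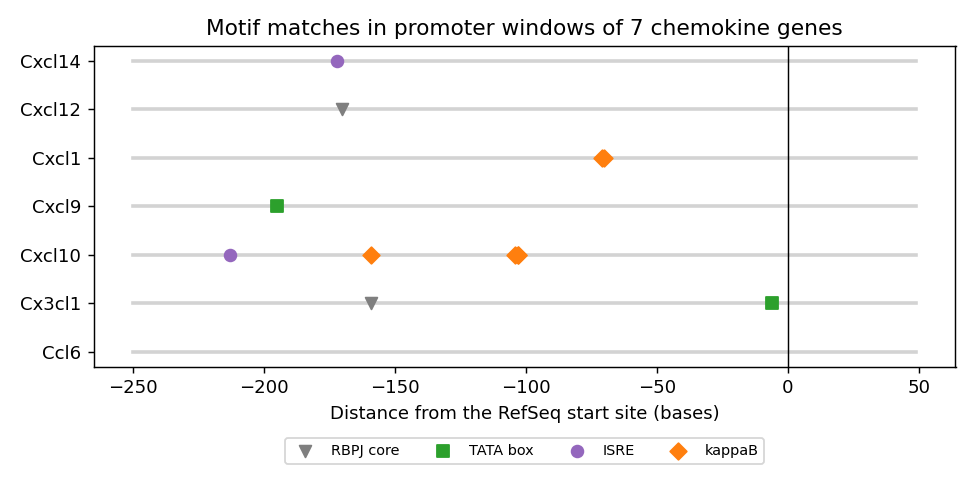
Positions of motif matches in the 300-base windows of 7 members, by distance in bases from the RefSeq start site. Markers give the motif (ISRE, NF-kB consensus as kappaB, RBPJ core, TATA box); ISRE matches are present in Cxcl14 and Cxcl10 and Ccl6 has no match.

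Cxcl9, the other interferon-induced ligand of Cxcr3 in the group, did not share the pattern of Cxcl10. It reached 33, 25, 29 and 13 counts in controls 1 to 4, against 25, 45 and 16 in Notch3-/- mice 1 to 3, which overlapped. Its log2 fold change was -0.08 (SE 0.45, Benjamini-Hochberg FDR 0.971, edgeR), and it turned positive without control mouse 1 (0.22) or Notch3-/- mouse 3 (0.26). The other way, it was -1.35 with the hepatocyte score as a covariate and -1.15 with Notch3-/- mouse 3 as the only Notch3-/- mouse. All 15 interferon-induced genes of a separate list had a positive log2 fold change, with a median of 0.60, against -0.00284 over all genes tested. Of these 15, 4 had an unadjusted p lower than 0.05 (Bst2, Ifit3 and Irf7 among them) and 0 were called by edgeR. Over all tested genes 7.34% were higher at this unadjusted p. In 1 of the 15 every Notch3-/- mouse was above every control mouse, against 4.57% of all tested genes, and in the others the mice overlapped. Bst2 was called in 1 of 21 alternatives. For Bst2, which tethers virions, Ifit3 and Irf7 the log2 fold changes were 0.91, 1.01 and 0.80. With the hepatocyte score as a covariate the log2 fold changes of Bst2, Ifit3 and Irf7 were -0.01, 1.55 and 0.75. In a list of 15 immediate early and NF-kB target genes, 11 were tested and 7 were positive, with a median of 0.37. Of these, 1 had an unadjusted p lower than 0.05, the adhesion molecule gene Icam1 (log2 fold change 0.57, and 0.38 with that covariate), and Jun, the most abundant, had -0.17.

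The 2 members with a membrane-anchored form are Cxcl16, a scavenger receptor for oxidized lipoproteins and ligand of Cxcr6, and Cx3cl1, the ligand of Cx3cr1 on monocytes and macrophages. Cxcl16 had 20.4, 24.0, 32.0 and 32.4 CPM in control mice and 25.1, 38.9 and 38.0 CPM in Notch3-/- mice. The lowest Notch3-/- mouse was within the control range. The log2 fold change was 0.33 (SE 0.23, Benjamini-Hochberg FDR 0.653, edgeR). Cxcl16 shares 552 exon bases with Zmynd15 on the other strand, with the same limit, and Zmynd15 had 36 to 51 counts in control and 46 to 91 in Notch3-/- mice. Cx3cl1 reached 142, 228, 238 and 202 counts in controls 1 to 4, against 211, 235 and 374 in Notch3-/- mice 1 to 3, and in CPM (54.6 ± 9.52 against 59.3 ± 10.7, SD, n = 4 and 3) the groups overlapped. Its log2 fold change was 0.12 (SE 0.18, Benjamini-Hochberg FDR 0.863, edgeR), and without Notch3-/- mouse 3 it was -0.03.

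The 3 CC chemokines act on monocytes and eosinophils. Ccl2, the ligand of Ccr2, reached 14, 7, 7 and 14 counts in controls 1 to 4, against 15, 36 and 13 in Notch3-/- mice 1 to 3, with a log2 fold change of 0.65 (SE 0.55, Benjamini-Hochberg FDR 0.728, edgeR). Ccl2 reached the filter's cutoff in 2 control mice and all 3 Notch3-/- mice, and in a fit to every gene with at least 1 count it had 0.62 (Benjamini-Hochberg FDR 0.689, edgeR). The high value was that of Notch3-/- mouse 2, at 7.57 CPM, and Notch3-/- mouse 1, at 4.10 CPM, was within the control range of 1.48 to 4.68 CPM. With the hepatocyte score as a covariate the log2 fold change was -0.41, and with Notch3-/- mouse 3 as the only Notch3-/- mouse it was -0.27, and the part of liver-type RNA was not tested. Ccl11, the eosinophil attractant eotaxin, reached 36, 25, 21 and 0 counts in controls 1 to 4, against 2, 12 and 12 in Notch3-/- mice 1 to 3. The control mice were spread over the range on both sides of the Notch3-/- mice, and the log2 fold change was -1.57 (SE 0.89, 95% confidence interval -3.56 to 0.43, Benjamini-Hochberg FDR 0.577, edgeR). Ccl11 passed the expression filter through 3 control mice, with 0 Notch3-/- mice at the cutoff, and in a fit to every gene with at least 1 count it had -1.59 (Benjamini-Hochberg FDR 0.660, edgeR). Ccl6, which is made by macrophages and other myeloid cells, reached 28, 118, 47 and 25 counts in controls 1 to 4, against 60, 78 and 111 in Notch3-/- mice 1 to 3. The log2 fold change was 0.40 (SE 0.37, Benjamini-Hochberg FDR 0.750, edgeR), and control mouse 2 stood apart from the other control mice.

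**Figure D4:**
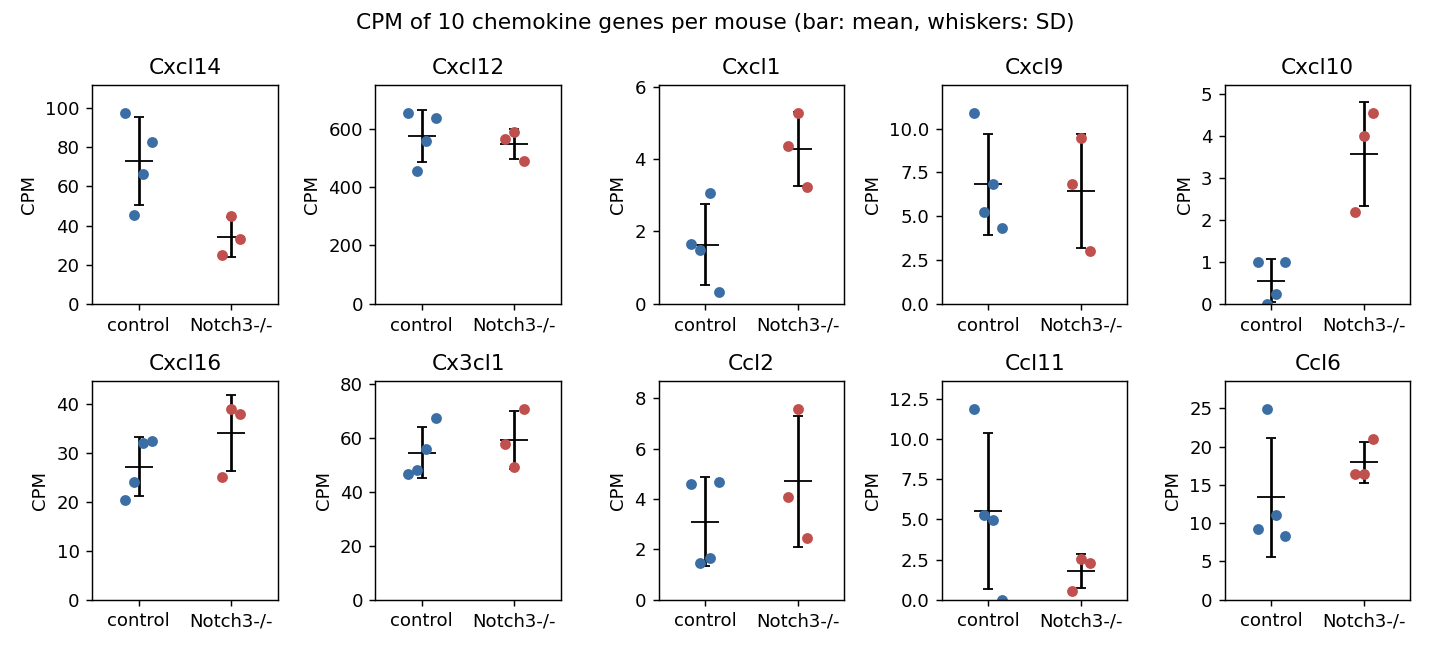
CPM of the 10 chemokine genes in 4 control mice (blue) and 3 Notch3-/- mice (red), each panel on its own axis from 0. Horizontal bars are means and whiskers SD; Cxcl14 lies lower, and Cxcl1 and Cxcl10 higher, in all Notch3-/- mice.

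Of the 10 members, 9 passed the expression filter and 8 of them were open to a test, since Cxcl14 is only described. Of the 8, 0 were called by edgeR at an FDR under 0.05 and a fold change of at least 1.5, where 0.00698% of all tested genes were called, and 0 were called by DESeq2 or by limma-voom. With an unadjusted p lower than 0.05, 1 was higher (Cxcl1, which passed the filter through the Notch3-/- mice) and 0 were lower, against 7.34% and 3.05% of all tested genes. The 8 had a median log2 fold change of 0.22, 5 of them positive, but the signs of 3 of the 8 are partly set by the filter, since Cxcl1 and Ccl2 reached its cutoff in 3 mice of the Notch3-/- group only and Ccl11 in at least 3 mice of the control group only. Cxcl12, Cxcl9, Cxcl16, Cx3cl1, Ccl11 and Ccl6 had, with the hepatocyte score as a covariate, log2 fold changes of -0.19, -1.35, 0.57, 0.53, -1.51 and 0.34. In that fit Cxcl1, Ccl2 and Ccl11 each had a Benjamini-Hochberg FDR of 0.999 (edgeR), and 0 genes were called. Notch3 was the gene called among the 14324, and 936 genes (903 higher, 33 lower) were called without Notch3-/- mouse 3. None of the 8 members was among these.

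Per kilobase of all annotated exons of a gene, levels can be compared between genes only roughly. This length was 8176 bases for Cxcl12 and 1827 for Cxcl14, and the transcripts expressed can be shorter. In control hearts Cxcl12 was highest at 70.4 ± 10.9 CPM per kb (SD, n = 4), followed by Cxcl14 at 39.9 ± 12.2 and Cx3cl1 at 13.9 ± 2.42, and the ranges of these neighbours did not overlap. Cxcl16, Ccl6, Ccl11, Ccl2, Cxcl9, Cxcl1 and Cxcl10 followed at 9.01, 7.45, 5.10, 2.73, 2.26, 0.869 and 0.247 CPM per kb, and each overlapped its neighbour in the range of control mice. In Notch3-/- hearts Cxcl14 was also second by the mean, at 18.8 ± 5.55 CPM per kb (SD, n = 3), with Cx3cl1 at 15.1 ± 2.73. The ranges of these mice overlapped, at 13.6 to 24.6 for Cxcl14 and 12.6 to 18.0 for Cx3cl1, so this order is not clear.

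Chemokine receptors were counted at low levels. Of 18 typical receptors, 8 passed the filter, 6 of them with a positive log2 fold change and with a median of 0.54, and 1 of the 8 reached the filter's cutoff in 3 mice of the Notch3-/- group only and 2 in at least 3 mice of the control group only. At an unadjusted p lower than 0.05, 2 were higher and 0 lower, against 7.34% and 3.05% of all tested genes. Of these 8, 0 were called by edgeR. Ccr2, the receptor of Ccl2, reached 14, 24, 19 and 23 counts in controls 1 to 4, against 49, 39 and 61 in Notch3-/- mice 1 to 3. Every Notch3-/- mouse was above every control mouse, at 8.20 to 13.4 CPM against 4.47 to 7.68 CPM. Over all tested genes 4.57% had this pattern. The log2 fold change of Ccr2 was 1.02 (SE 0.31, Benjamini-Hochberg FDR 0.277, edgeR), and it was 1.09 with Notch3-/- mouse 3 as the only Notch3-/- mouse, 0.87 in the mice with k labels and 1.20 with the hepatocyte score as a covariate. Ccr2 is also carried by monocytes and macrophages, those of liver included. Notch3-/- mouse 1, with 8670 CPM of hepatocyte markers, was highest for Ccr2 and mouse 3, with 190 CPM, was second, and the part of liver-type RNA was not tested further.

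The groups overlapped for the receptors that follow. Cx3cr1 was the most abundant of the 18, with 12, 24, 56 and 86 counts in control and 52, 127 and 85 in Notch3-/- mice, a log2 fold change of 0.60 that was -0.14 in the mice with k labels. Cxcr2, Cxcr6 and Ccr1 had log2 fold changes of 0.49, -0.73 and 0.83. For Cx3cr1, Cxcr2, Cxcr6 and Ccr1 the fit with the hepatocyte score as a covariate gave 0.62, 0.17, 0.75 and -0.0075. With Notch3-/- mouse 3 as the only Notch3-/- mouse Cxcr6 had 0.36, and without Notch3-/- mouse 2 Ccr1 had -0.10. Cxcr4 had 3 to 10 counts in control and 6 to 10 in Notch3-/- mice, Cxcr3 had 2 to 11 and 0 to 9, and neither was tested. Ccr3, the receptor of Ccl11, had 2 counts in Notch3-/- mouse 2 and 0 in the other mice.

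**Figure D5:**
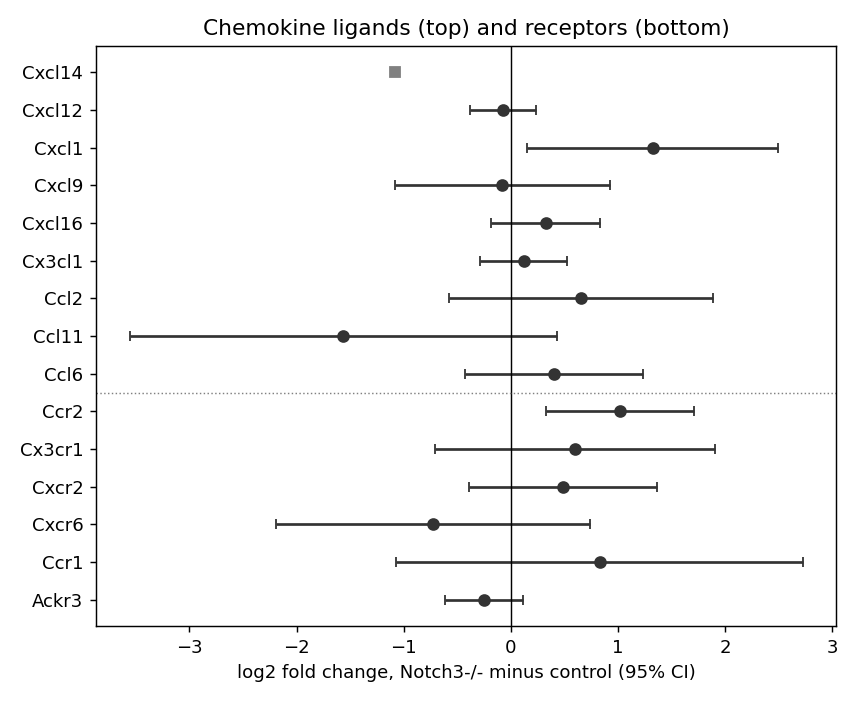
Log2 fold change (Notch3-/- minus control) for the 9 members in the edgeR fit, top, and for receptors, bottom, with 95% confidence intervals except for Cxcl14. The square is Cxcl14, chosen for its difference and not tested; the intervals of Cxcl1 and Ccr2 lie above 0, and no receptor or tested ligand was called.

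Of the 9 atypical receptors and chemokine-processing enzymes, 8 were tested, 5 with a positive log2 fold change and a median of 0.09. Ackr3, which takes up Cxcl12 and was the most abundant, had a log2 fold change of -0.25 (SE 0.16, Benjamini-Hochberg FDR 0.632, edgeR). Ccrl2, which presents chemerin, was below every control mouse in all Notch3-/- mice, at 27.9 ± 7.53 CPM (SD, n = 3) against 42.9 ± 6.20 CPM (SD, n = 4), with a log2 fold change of -0.62 (SE 0.21, Benjamini-Hochberg FDR 0.349, edgeR). Over all tested genes 3.96% had every Notch3-/- mouse below every control mouse. Dpp4, a protease that trims chemokines and is also expressed in liver, reached 25, 58, 30 and 7 counts in controls 1 to 4, against 61, 447 and 75 in Notch3-/- mice 1 to 3. Notch3-/- mouse 2 was far above the others, and the log2 fold change was 2.45, and 0.89 with Notch3-/- mouse 3 alone. For Ackr3, Ccrl2 and Dpp4 the hepatocyte score as a covariate gave -0.04, -0.31 and 0.25. Of 28 other ligands, 8 were tested, 4 positive and 4 negative, with a median of 0.02, and 3 of the 28 had no count in any mouse. Of the 8, 3 reached the filter's cutoff in at least 3 mice of the control group only. At an unadjusted p lower than 0.05, 1 was higher and 1 was lower, against 7.34% and 3.05% of all tested genes. These were Ccl9, a myeloid chemokine and the most abundant, with a log2 fold change of 0.96 (Benjamini-Hochberg FDR 0.363, edgeR), and Ppbp, a platelet chemokine, with -2.16 (Benjamini-Hochberg FDR 0.322, edgeR). Ppbp passed the expression filter through 3 control mice, with 0 Notch3-/- mice at the cutoff, and in a fit to every gene with at least 1 count it had -2.19 (Benjamini-Hochberg FDR 0.160, edgeR). Ccl9 had -0.06 and Ppbp had -0.97 when the hepatocyte score was a covariate.

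Genes with the pattern most like Cxcl14 across the 7 mice were sought among 10727 genes with a mean of at least 10 CPM, by Pearson's r of log2 CPM. They were Ankzf1, a factor of ribosome quality control (r = 0.966), Mrvi1, a smooth muscle substrate of cGMP-dependent kinase (0.950), 4933431E20Rik (0.941), Klhl11 (0.941) and Oxsm, a mitochondrial fatty acid synthase (0.935). The genotype difference itself enters r, which is a description. None of the 5 was as different between genotypes as Cxcl14, with log2 fold changes of -0.23, -0.48, -0.38, -0.37 and -0.40. Spearman's rho was 0.964 for 4 of the 5, the highest value and shared by 13 genes, so that it gives no order among them. Among the other members, r with Cxcl14 ranged from -0.78 for Ccl6 to 0.60 for Cxcl12.

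Cell types that make or receive chemokines were described by marker lists. The 12 fibroblast markers had a median log2 fold change of 0.07, 7 positive and 5 negative, with 4 positive and 1 negative at an unadjusted p lower than 0.05. Among all tested genes 7.34% were higher and 3.05% lower at this unadjusted p. The collagen genes Col3a1, Col1a1 and Col1a2 and Pi16, the 4 positive ones, had 0.79, 0.62, 0.41 and 0.46, and Dcn, the negative one, had -0.26. Gsn, the most abundant, had -0.23. The 8 tested markers of vascular smooth muscle had a median of -0.24, 3 positive and 5 negative, with Des at -0.26, Myh11 at -2.49 and Tagln at -0.93, and the 10 pericyte markers had -0.14, 3 positive and 7 negative, with Rgs5 at -0.34, Cspg4 at -0.63 and Vtn, which is also made in liver, at 2.57, or -0.66 with the hepatocyte score as a covariate. The medians were 0.10 for 13 macrophage and monocyte markers, 10 positive and 3 negative, with Mrc1 at 0.37 and Cd74 at 0.03, and -0.02 for 12 endothelial markers, 6 positive and 6 negative, with Eng at 0.06. For the 12 cardiomyocyte markers the median was -0.22 with all 12 negative, and Ttn had -0.10. Fewer markers were tested for endocardial and valve cells (5, median -0.31, Vwf at -0.11), Schwann cells (4, median -0.77, 2 of them at the filter's cutoff in at least 3 mice of the control group only, Cdh19 at -0.63), adipocyte and epicardial cells (4, median 0.83, 3 of them at the cutoff in 3 mice of the Notch3-/- group only, Wt1 at 0.18), and lymphocytes and granulocytes (2, median -0.35, 1 of them at the cutoff in at least 3 mice of the control group only, Kit at 0.01). Of the genes on these marker lists 0 were called by edgeR in the main analysis, but some were called in alternatives. Myh11 was called in 6 of 21 alternatives, Col3a1 and Vtn in 5 of 21 each and Col1a1 in 1 of 21. The lists were not compared with Cxcl14, and the part of cell numbers in its level was not tested.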

How the data were processed

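The authors deposited counts, whole numbers of reads per gene and library that are not normalized, and the submitters' processing notes name CASAVA and mm10. The aligner and the counting program are not given in the sources used here. The 46517 Ensembl genes were analysed, 46005 of them found in GENCODE M21 (GRCm38), and spike-in lines were left out. Counts of 3 technical libraries were summed per mouse and compared in R 4.3.3 with edgeR 4.0.16 (filterByExpr, TMM, quasi-likelihood F-test with Benjamini-Hochberg adjustment over 14324 genes). Log2 CPM used a prior count of 2. The alternatives included DESeq2 1.42.0 and limma 3.58.1 and were run over all genes. The scripts were tested on simulated data. Genes named were the members, the most abundant gene of each list and up to 4 with an unadjusted p lower than 0.05, receptors of members, Notch3 and the 5 genes most like Cxcl14. Some genes of this rule are not reported here. Of the genes outside the rule, Art3 and Zmynd15 share exons with members, and Dcn was the fibroblast marker lower at that unadjusted p. The members and lists were chosen with earlier results of these data known.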

Additional observations from a re-analysis of the deposited data

Results flagged for a closer look

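Ccl6 in control mouse 2, at 24.9 CPM, stood apart from the other 3 control mice by the gap between it and its nearest neighbour relative to the whole range. Chance marks about 1 in 20 groups in this way, and 10 genes were examined. The cause was not tested.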

How the results depend on the processing

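The log2 fold change of Cxcl14 kept its sign under all 21 alternatives, between -1.32 and -0.82, and between -1.32 and -0.90 with each mouse left out in turn. Cxcl14 was picked for this difference in the same mice, so the kept sign is a description and no support for it. The count of tested members called, and that of other chemokine ligands and receptors called, was 0 in every alternative. The count of all genes called was 1 in the main analysis, 597 in DESeq2, 639 with every gene of at least 1 count, 0 in the mice with k labels and 0 with the hepatocyte score as a covariate. It was 48, 39 and 77 on technical libraries 1, 2 and 3 alone, and 1 to 936 with each mouse left out, the highest without Notch3-/- mouse 3. In limma-voom on 21 libraries it was 64, and 54 with the technical number as a block. Both fits took libraries as observations and allowed for a correlation between libraries of a mouse, which was 0.152 in the fit without the number. Their p-values thus rest on spread between libraries as well as between mice, and these counts are not set against the main count. The technical numbers do not pair the libraries, since deviations from the mouse mean had a median correlation of -0.01 between libraries of the same number and 4 of 21 libraries were closest to their own number, so the block is not a pairing. The block changed no call among chemokine genes. Liver markers and Dpp4, not called in the main analysis, were called in some alternatives. Alb was called in 7 of 21, Cyp2e1 and Apoc3 in 4 of 16 each, and Tat and Stab2 in 3 of 15 each. Cd5l was called in 1 of 14 and Dpp4 in 2 of 20.

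Of 1200 values for 62 genes, 1140 kept their direction and 60 did not, and these are given as log2 fold changes. On technical library 1 alone the sign reversed for Cxcl12 (0.11), Eng (-0.0948), Lyve1 (-0.0337) and Klhl11 (0.0717). In the mice with k labels the sign reversed for Cxcl9 (0.18), Cx3cl1 (-0.0622), Cx3cr1 (-0.14), Vwf (0.44), Cd74 (-0.0885) and Kit (-0.32). On technical library 3 alone the sign reversed for Cxcl9 (0.48), Cxcl16 (-0.0470), Cx3cl1 (-0.0103), Cd74 (-0.0918) and Kit (-0.20). With the hepatocyte score as a covariate the sign reversed for Ccl2 (-0.41), Ccl9 (-0.0588), Bst2 (-0.00578), Vtn (-0.66), Eng (-0.0636), Kit (-0.90), Wt1 (-0.0646), Lyve1 (-0.40), Cd5l (-1.61), Cxcr6 (0.75) and Ccr1 (-0.00750). With Notch3-/- mouse 3 as the only Notch3-/- mouse the sign reversed for Ccl2 (-0.27), Vtn (-0.11), Eng (-0.0588), Kit (-1.01), Lyve1 (-0.0838) and Cxcr6 (0.36). On technical library 2 alone the sign reversed for Eng (-0.00241), Vwf (0.0600), Cd74 (-0.11), Wt1 (-0.00147) and Mrvi1 (0.43). With every gene of at least 1 count the sign reversed for Kit (-0.00866). In limma-voom on 21 libraries the sign reversed for Kit (-0.22). In limma-voom with the block the sign reversed for Kit (-0.23). With each mouse left out, the sign changed within the ranges of Ccr1 (-0.10 to 1.25), Cd74 (-0.12 to 0.15), Cx3cl1 (-0.0341 to 0.24), Cxcl9 (-0.49 to 0.26), Eng (-0.0170 to 0.17), Kit (-0.37 to 0.35), Lyve1 (-0.0875 to 0.40), Ttn (-0.36 to 0.0363), Vwf (-0.32 to 0.10) and Wt1 (-0.10 to 0.34). The cause was not tested. The Cxcl10 ratio ranged from 3.59 to 23.9, and the exact permutation p was 0.0571 on technical library 2 alone (ratio 13.7) and 0.114 on library 3 alone (ratio 3.59). With 3 mice against 3, or 4 against 2, no exact permutation test can pass the threshold. At these depths Cxcr4, Cxcr3 and Ccr3 did not pass the expression filter and were not compared, and the Cxcl10 ratio rests on 7 control counts in all.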
